A study of Mus musculus with 18 samples.

Results

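Autophagy genes were examined in mouse embryonic fibroblasts, the cultured connective-tissue cells of the embryo, labelled Ago2+/+ or Ago2-/- (lacking AGO2, an Argonaute that cuts RNA paired with its small guide RNA). Cells of each label had received the solvent DMSO, tunicamycin, an inhibitor of protein N-glycosylation in the endoplasmic reticulum (ER), or 500 nM thapsigargin, which empties the ER of calcium, giving 6 groups of 3 sequenced libraries, 18 in all. The titles of the libraries call the groups labelled Ago2+/+ DCR1 and the groups labelled Ago2-/- AGO2. The study asked how AGO2 shapes the mRNAs of cells under ER stress. The sources used here give neither the strain, nor the number of clones, nor the deleted part of Ago2. The genes were chosen by name: Ulk1, Becn1, Atg5, Atg7, Map1lc3a, Map1lc3b, Gabarapl1, Gabarapl2, Sqstm1 and Rtn3. Of these 10 members, 9 had a locus in the table of 51499 assembled loci, each a locus that names no other gene. Map1lc3b is not analysed here. All 9 had a mean of at least 1 FPKM (fragments scaled to transcript length and library size) over the 6 groups, as did 11929 loci in all. Each value is the authors' single FPKM for a group of libraries, without replicate spread. No difference was tested here, and the authors' own test results were not used.

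In macroautophagy a double membrane grows around cytoplasm, closes to an autophagosome and fuses with the lysosome. The ULK1 kinase complex starts the process, a lipid kinase complex built on Beclin 1 marks the membrane, and ATG7 and the ATG5 conjugate attach proteins of the ATG8 family (LC3 and GABARAP proteins) to it. Receptors such as p62, the product of Sqstm1, bind both cargo and ATG8 proteins. ER-phagy is the form in which receptors in the ER membrane, RTN3 among them, deliver fragments of the ER itself, and it is one way in which cells clear ER during stress.

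The labels were checked before the members. Ago2 was at 22.1, 5.75 and 17.0 FPKM in the DMSO, tunicamycin and thapsigargin groups labelled Ago2+/+, and at 5.61, 15.5 and 20.7 in the corresponding Ago2-/- groups. It was thus lower in the group labelled Ago2-/- under DMSO alone, and groups are named here by label only. Ddit3, which encodes CHOP, and Atf4, genes of the ER stress response, bear on the treatment labels. In the same order, Ddit3 was at 237, 282 and 345 FPKM with the label Ago2+/+, and 339, 349 and 253 with the label Ago2-/-. Atf4 was at 394, 528 and 583 FPKM, and at 532, 575 and 407. With the label Ago2-/-, both were thus higher under DMSO than under thapsigargin. The labels conflict on genotype for 4 libraries, which the group values do not allow to be left out. Of 6 fibroblast markers, 4 (Col1a1, Col1a2, Vim and Fn1) were at 1 FPKM or more in all groups, and Thy1 was listed at 0. Pdgfrb was at 0.54 FPKM in Ago2+/+ DMSO and 0.80 in Ago2-/- thapsigargin, against 7.84 to 17.9 elsewhere. Summed, the fibroblast markers ranged from 1574 to 2967 FPKM. Of 7 markers of other cell types, 6 were under 1 FPKM in all groups, Adgre1 at 0 in all, and the summed level of 40.5 to 66.7 FPKM came mostly from Nes. In such bulk samples, fewer cells of a type and less RNA per cell cannot be told apart.

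The initiating kinase was among the least abundant members. Ulk1 (ENSMUSG00000029512, GRCm38, chr5:110784488-110810097, minus strand) was at 8.06 FPKM in the DMSO group labelled Ago2+/+, 10.8 in the tunicamycin group and 14.7 in the thapsigargin group. With the label Ago2-/- the same treatments gave 8.83, 15.4 and 8.81 FPKM. The 2 highest groups were therefore Ago2-/- tunicamycin and Ago2+/+ thapsigargin, the tunicamycin group labelled Ago2+/+ lay between, and the other 3 lay between 8.06 and 8.83 FPKM. From highest to lowest, Ulk1 spanned 1.92-fold.

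Becn1 encodes Beclin 1, the scaffold of the class III phosphatidylinositol 3-kinase complex. Becn1 (ENSMUSG00000035086, chr11:101277968-101302286, minus strand) was at 86.9, 55.2 and 69.1 FPKM in the DMSO, tunicamycin and thapsigargin groups labelled Ago2+/+. The corresponding Ago2-/- groups had 58.3, 63.4 and 77.6 FPKM. Becn1 was highest in Ago2+/+ DMSO and Ago2-/- thapsigargin and lowest in Ago2+/+ tunicamycin, over a range of 1.57-fold. Its assembled locus runs 7984 bases beyond the annotated gene and overlaps Cntd1 and Coa3. Since the strandedness of the libraries is not given, fragments of overlapping genes cannot be told apart where exons meet. The loci of Sqstm1, Rtn3, Gabarapl1, Atg5 and Atg7 also overlap other annotated genes.

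Conjugation was represented by Atg5 and Atg7. Atg5 encodes the protein that, joined to ATG12, directs ATG8 proteins to the membrane. Atg5 (ENSMUSG00000038160, chr10:44268358-44364291, plus strand) with the label Ago2+/+ was at 12.7 FPKM in the DMSO group, 12.8 with tunicamycin and 24.4 with thapsigargin. With the label Ago2-/- the levels were 13.6, 24.5 and 13.6 FPKM, in the same order of treatments. The levels of Atg5 thus formed a high level, held by Ago2+/+ thapsigargin and Ago2-/- tunicamycin, and a low level, held by the other 4 groups, with no value between. Atg7 encodes the enzyme that activates both ATG12 and the ATG8 proteins. Atg7 (ENSMUSG00000030314, chr6:114643097-114860614, plus strand) had 12.9, 7.70 and 11.1 FPKM in these groups with the label Ago2+/+, and 8.80, 14.0 and 12.8 FPKM with the label Ago2-/-. For Atg7 it was the low end that stood apart, with Ago2+/+ tunicamycin and Ago2-/- DMSO below the other 4 groups.

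The ATG8 family members differed in which group was highest. Map1lc3a (ENSMUSG00000027602, chr2:155276297-155278073, plus strand), which encodes LC3A, was at 26.5, 31.3 and 34.8 FPKM in the DMSO, tunicamycin and thapsigargin groups with the label Ago2+/+. With the label Ago2-/- it was at 34.0, 43.2 and 26.8 FPKM. The highest value of Map1lc3a stood alone, in Ago2-/- tunicamycin, and the lowest were those of Ago2+/+ DMSO and Ago2-/- thapsigargin. Gabarapl1 (ENSMUSG00000030161, chr6:129531950-129542346, plus strand), which encodes a GABARAP-like protein, had 32.4, 49.8 and 45.9 FPKM in the same groups labelled Ago2+/+ and 48.3, 44.6 and 36.4 FPKM with the label Ago2-/-. For Gabarapl1 the 2 groups that were lowest for Map1lc3a were again the lowest, and the other 4 lay close together. Its range of 1.54-fold was the narrowest of the 9 members.

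Gabarapl2, which encodes the third GABARAP protein, also called GATE-16, ran the other way. Gabarapl2 (ENSMUSG00000031950, chr8:111940703-111953612, plus strand) with the label Ago2+/+ had 52.4 FPKM in the DMSO group, 25.5 with tunicamycin and 34.4 with thapsigargin. The same treatments with the label Ago2-/- gave 28.2, 35.5 and 43.3 FPKM. Its highest groups, Ago2+/+ DMSO and Ago2-/- thapsigargin, were thus the lowest for Gabarapl1 and Map1lc3a. The range was 2.06-fold, and 2.02-fold once 1 FPKM was added to each value.

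With Gabarap, the family member outside the list, added, the measured ATG8 transcripts summed to between 225 and 323 FPKM. Gabarap held most of this in all 6 groups, from 52.6% in Ago2-/- thapsigargin to 61.8% in Ago2-/- tunicamycin. The share of Gabarapl2 varied most, from 10.7% in Ago2+/+ tunicamycin to 21.2% in Ago2+/+ DMSO. Gabarapl1 held between 13.1% and 20.9%, with those extremes in the same groups in the opposite order, and Map1lc3a between 10.7% and 13.9%. Gabarapl2 exceeded Gabarapl1 only in Ago2+/+ DMSO and Ago2-/- thapsigargin. These shares leave out Map1lc3b, and they are shares of length-scaled transcript levels, not of protein.

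**Figure D1:**
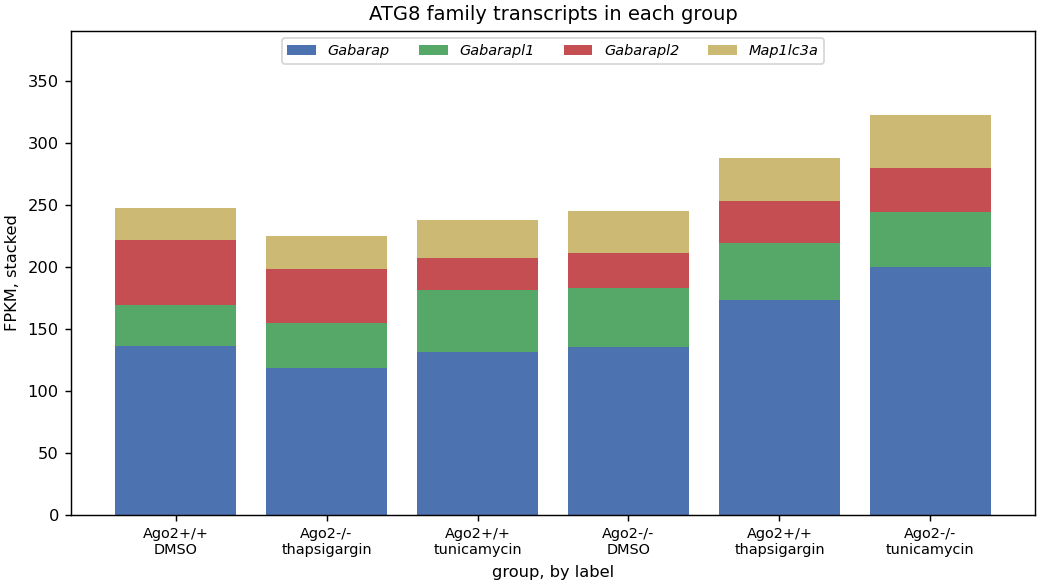
Stacked bars give the authors' pooled FPKM of Gabarap, Gabarapl1, Gabarapl2 and Map1lc3a in the 6 groups, named by label on the horizontal axis. The total is highest in Ago2-/- tunicamycin at 323 FPKM, and the Gabarapl2 segment is tallest in Ago2+/+ DMSO and Ago2-/- thapsigargin, at 52.4 and 43.3 FPKM.

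Sqstm1 was by far the most abundant member. Sqstm1 (ENSMUSG00000015837, chr11:50174444-50210827, minus strand) with the label Ago2+/+ had 322 FPKM in the DMSO group, 484 with tunicamycin and 267 with thapsigargin. With the label Ago2-/- the levels were 544, 290 and 342 FPKM. Ago2-/- DMSO and Ago2+/+ tunicamycin were thus the 2 highest groups, well above the other 4, and those 2 were also the groups with the lowest Ago2. Within a label, the direction of tunicamycin against DMSO was opposite. The assembled locus of Sqstm1 reaches 24922 bases beyond the annotated gene and overlaps Mrnip on the opposite strand.

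Rtn3 encodes a reticulon, a protein that bends ER tubules and whose long isoform acts as an ER-phagy receptor. Rtn3 (ENSMUSG00000024758, chr19:7417625-7483289, minus strand) was at 94.4, 71.0 and 106 FPKM in the DMSO, tunicamycin and thapsigargin groups labelled Ago2+/+. For the label Ago2-/- the values were 69.6, 108 and 77.0 FPKM. Ago2-/- tunicamycin and Ago2+/+ thapsigargin were highest, as for Ulk1 and Atg5, and Ago2-/- DMSO and Ago2+/+ tunicamycin lowest, as for Gabarapl2, Atg7 and Becn1. The locus value sums the isoforms, of which the annotation lists 5, so the long receptor form is not resolved. The assembled locus of Rtn3 runs 8284 bases beyond the annotated gene and overlaps 2700081O15Rik and Mir6991 on the opposite strand.

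**Figure D2:**
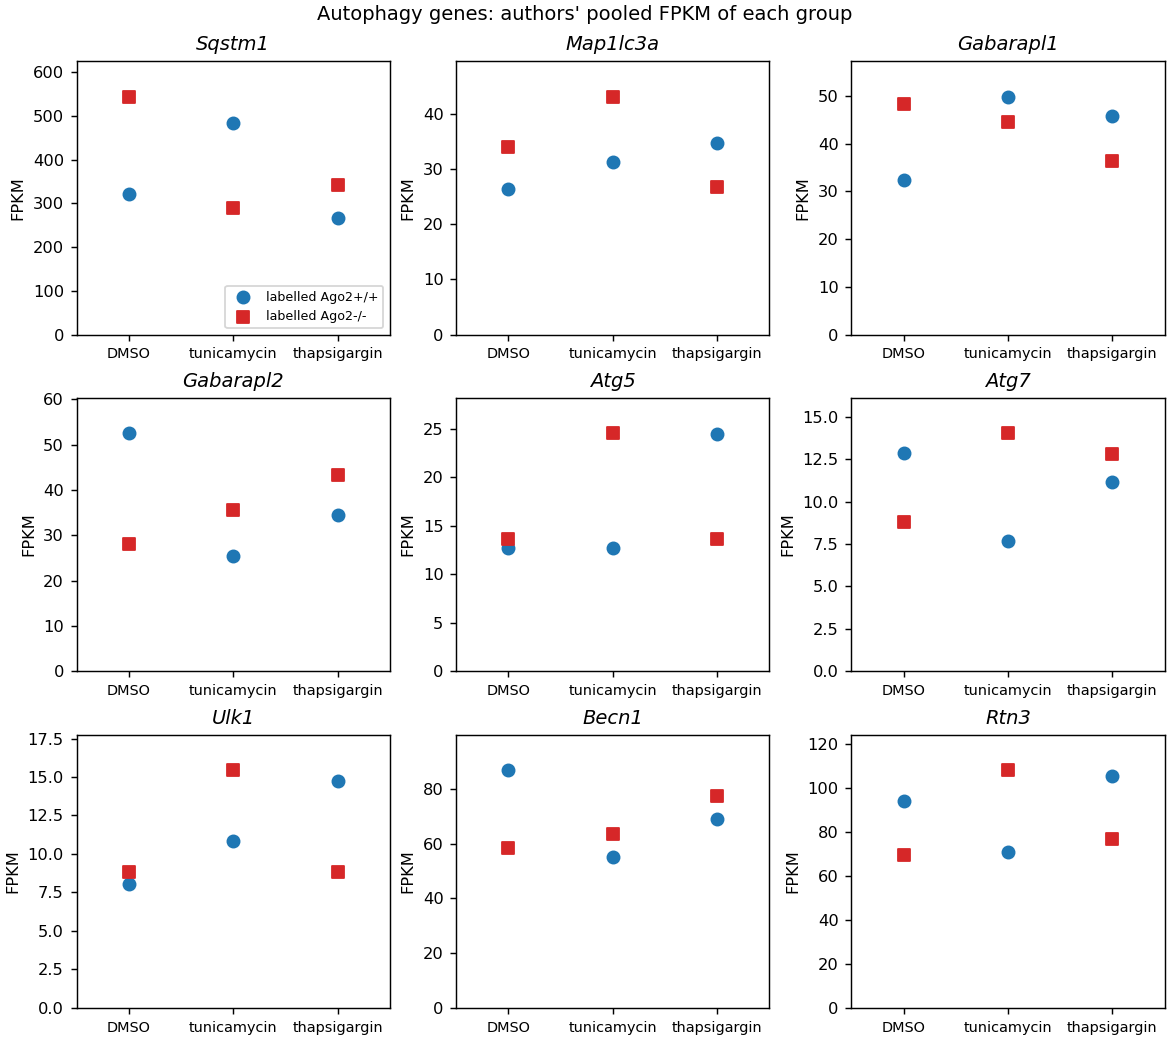
Each panel plots 1 member, with the treatment on the horizontal axis and the authors' pooled FPKM on the vertical axis from 0; circles are groups labelled Ago2+/+ and squares groups labelled Ago2-/-, without error bars because each group has 1 value. Atg5 sits between 12.7 and 13.6 FPKM in 4 groups and at 24.4 and 24.5 FPKM in Ago2+/+ thapsigargin and Ago2-/- tunicamycin, while Sqstm1 is highest, at 544 and 484 FPKM, in Ago2-/- DMSO and Ago2+/+ tunicamycin.

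The sequences before the start sites are shown for the member of highest level, Sqstm1, and for Atg5 and Ulk1, which were highest in the same groups. RefSeq promoter windows (GRCm38.p6, 250 bases before to 50 after the start of the gene, 300 in all) were found for 7 of the 9 measured members, without Map1lc3a and Becn1. They were searched on both strands for the E-box CACGTG, which is the core of the CLEAR element bound by TFEB and its relatives, for TCACGTGA, an extended form that contains CACGTG, for the C/EBP-ATF element TGATGNAA and for the antioxidant response element core TGACNNNGC. Capitals mark a match. The windows are chr11:50210771-50211070 (minus strand) for Sqstm1, chr10:44268089-44268388 (plus strand) for Atg5 and chr5:110810032-110810331 (minus strand) for Ulk1, written 5′ to 3′ along the gene.
Sqstm1: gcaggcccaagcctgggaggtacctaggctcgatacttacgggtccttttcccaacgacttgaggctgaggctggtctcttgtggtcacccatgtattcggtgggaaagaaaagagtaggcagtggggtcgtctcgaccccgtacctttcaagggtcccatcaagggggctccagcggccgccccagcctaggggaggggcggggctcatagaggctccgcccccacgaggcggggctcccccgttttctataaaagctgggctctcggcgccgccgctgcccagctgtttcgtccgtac
Atg5: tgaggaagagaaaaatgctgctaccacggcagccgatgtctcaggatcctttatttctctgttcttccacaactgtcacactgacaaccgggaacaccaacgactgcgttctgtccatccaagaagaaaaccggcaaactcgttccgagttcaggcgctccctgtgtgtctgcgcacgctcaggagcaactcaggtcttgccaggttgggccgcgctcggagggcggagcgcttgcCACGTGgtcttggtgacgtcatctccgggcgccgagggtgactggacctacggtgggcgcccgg
Ulk1: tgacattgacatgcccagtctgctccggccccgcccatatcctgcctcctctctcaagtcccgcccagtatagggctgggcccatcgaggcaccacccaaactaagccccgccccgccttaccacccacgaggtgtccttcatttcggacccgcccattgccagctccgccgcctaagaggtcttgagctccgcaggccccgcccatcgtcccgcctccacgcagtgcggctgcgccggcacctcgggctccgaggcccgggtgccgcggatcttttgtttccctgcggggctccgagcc
CACGTG occurred in 2 of the 7 windows, those of Atg5 (first base at -14 from the start) and Atg7 (first base at -132), against 7.15% of 32851 promoters of the same length. The RefSeq start used for Atg7 (chr6:114671096) lies 27999 bases inside the annotated gene, so its window is not at the outermost start, whereas the other 6 windows start within 32 bases of it. TGACNNNGC occurred in 1 window, that of Rtn3, against 12.4% of all promoters. TCACGTGA (0.974% of all promoters) and TGATGNAA (3.97%) were in none of the 7. Atg5 and Ulk1, whose levels were highest in the same groups, shared none of the 4 motifs in these windows, and a match or its absence here is a description of letters only.

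Tunicamycin was compared with DMSO to see which autophagy genes differed when glycosylation was blocked. A gene was counted when (FPKM + 1) differed by at least 1.5-fold, without a test. In the groups labelled Ago2+/+, 2 of 9 members were higher under tunicamycin, Gabarapl1 (log2 ratio 0.60) and Sqstm1 (0.59), where 15.2% of all loci were higher. Another 3 were lower, Gabarapl2 (-1.01), Atg7 (-0.67) and Becn1 (-0.64), where 14% of all loci were lower. Sqstm1 lay almost on the limit of 1.5-fold. In the groups labelled Ago2-/-, 4 members were higher under tunicamycin, Atg5 (0.80), Ulk1 (0.74), Rtn3 (0.63) and Atg7 (0.62), against 19.3% of all loci. Only Sqstm1 was lower there (-0.90), against 17.5% of all loci. The members' median log2 ratio was 0.01 with the label Ago2+/+ and 0.34 with the label Ago2-/-, where those of all loci were 0.01 and 0. No member was counted in the same direction in both labelled genotypes, and Sqstm1 and Atg7 were counted in opposite directions. The share of all loci that did likewise was not counted, so this is not read as a trait of the members. Ago2+/+ tunicamycin and Ago2-/- DMSO differed by 1.5-fold at only 1.94% of loci. For most loci the numerator of the first ratio thus lay near the denominator of the second.

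The same comparison was made for thapsigargin. With the label Ago2+/+, Atg5 (0.90) and Ulk1 (0.79) were higher, 2 of 9 members against 14.9% of loci, and Gabarapl2 (-0.59) was lower, against 12.6%. With the label Ago2-/-, Gabarapl2 (0.60) was the 1 member higher, against 14.3% of loci, and Sqstm1 (-0.67) the 1 member lower, against 16.8%. Atg5 and Ulk1 were at 13.6 and 8.81 FPKM there, against 13.6 and 8.83 under DMSO. Gabarapl2 was thus lower under thapsigargin in one labelled genotype and higher in the other. Both stressors share the DMSO group of a label, so their columns are not independent of each other.

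The labelled genotypes were compared under each treatment to see which members differed with the label. Under DMSO, Sqstm1 was higher in the group labelled Ago2-/- (0.76), 1 of 9 members against 15.1% of loci, and Gabarapl2 was lower (-0.87), 1 of 9 against 14.3%. Under tunicamycin, Atg5 (0.89), Atg7 (0.79) and Rtn3 (0.60) were higher, 3 of 9 members against 18.7% of loci, and Sqstm1 was lower (-0.74), against 17.1%. Under thapsigargin 0 members were higher, against 12.4% of loci, and Atg5 (-0.80) and Ulk1 (-0.68) were lower, 2 of 9 against 15.9%. The contrasts for Sqstm1 under DMSO and tunicamycin had opposite signs, as had those for Atg5 under tunicamycin and thapsigargin. Map1lc3a did not reach 1.5-fold in any of the 7 comparisons, with log2 ratios between -0.36 and 0.45. It was the 1 member of 9 (11.1%) without a count, next to 39.8% of all loci. The shift of all loci together was small, with a median log2 ratio between -0.03 and 0.01 in the 7 comparisons.

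**Figure D3:**
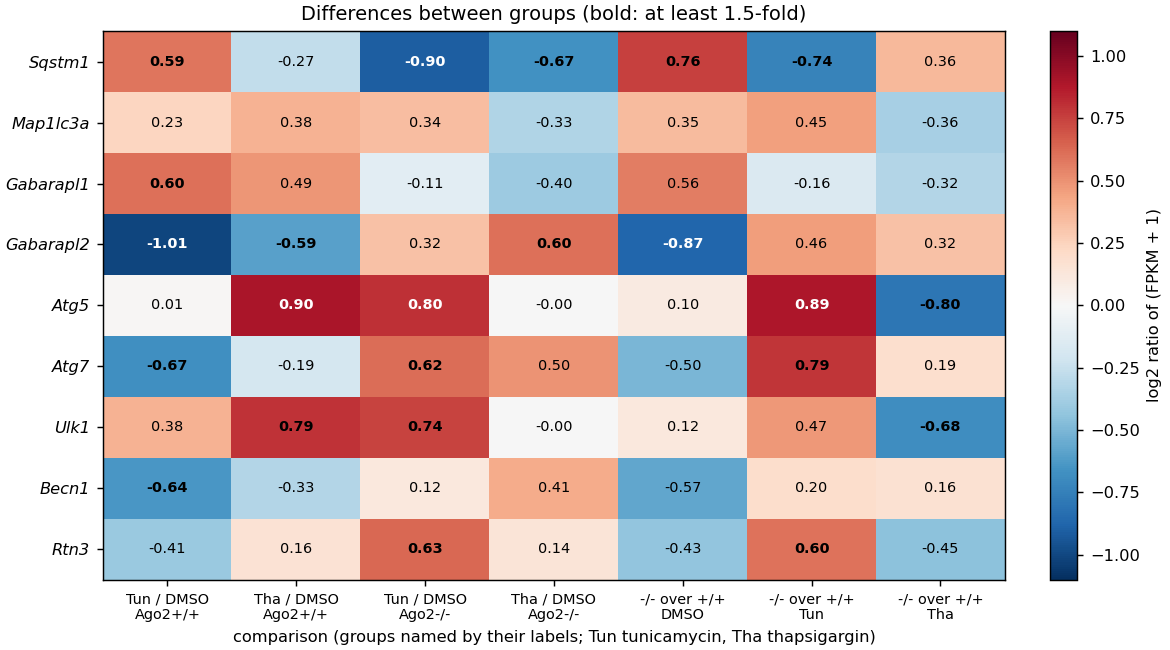
The colour and number in each cell are the log2 ratio of (FPKM + 1) for 1 member (rows) in 1 comparison (columns: each stressor over DMSO within a label, then Ago2-/- over Ago2+/+ within a treatment), and bold numbers reach 1.5-fold. The row of Gabarapl2 goes from -1.01 under tunicamycin with the label Ago2+/+ to 0.60 under thapsigargin with the label Ago2-/-, and the row of Map1lc3a has no bold cell.

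The recurring order of groups was then measured over all 15 pairs of groups. In 3 pairs each group was the closest to the other over the 11929 loci, and each such pair crossed both label and treatment. They were Ago2-/- DMSO with Ago2+/+ tunicamycin (called the DMSO-tunicamycin pair), Ago2-/- tunicamycin with Ago2+/+ thapsigargin (the tunicamycin-thapsigargin pair) and Ago2-/- thapsigargin with Ago2+/+ DMSO (the thapsigargin-DMSO pair). Inside these pairs between 1.94% and 5.62% of loci differed by 1.5-fold or more, against 27.5% to 36.9% in the other 12. The members followed the same division. Of 27 member values inside the 3 pairs, 0 reached 1.5-fold, while 37 of 108 did so in the other 12 pairs. The median absolute log2 ratio of the members was between 0.06 and 0.11 inside the pairs and between 0.29 and 0.62 outside them. For all 9 members the means of the 3 pairs lay further apart than the largest difference inside a pair. The pairs were picked as closest over all loci, and the share of loci with this property was not counted. It is therefore not read as a trait of the members. Inside the pairs Atg5 was the closest, with a largest difference of 1.07-fold, and Atg7 and Map1lc3a were the widest, both at 1.24-fold. Between the pair means Sqstm1 spanned most, 1.84-fold, and Gabarapl1 least, 1.42-fold.

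**Figure D4:**
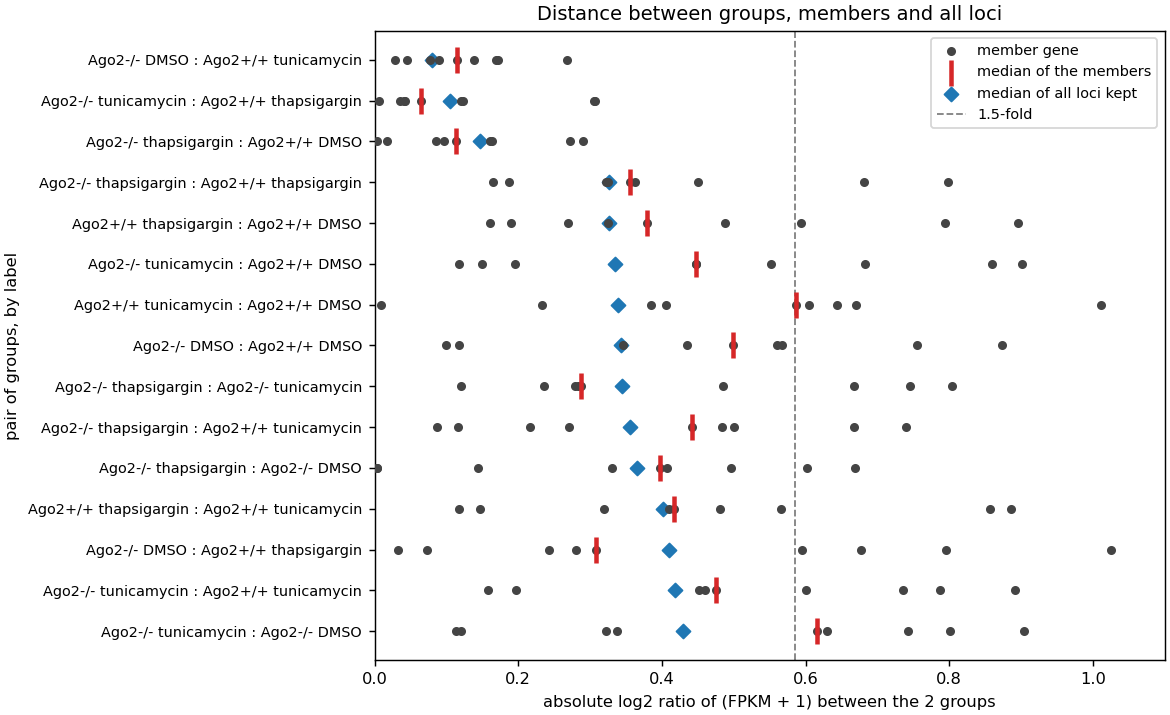
Each line is 1 of the 15 pairs of groups, ordered by the distance over all loci, and the horizontal axis is the absolute log2 ratio of (FPKM + 1); points are the 9 members, red ticks their median, blue diamonds the median of all 11929 loci and the dashed line 1.5-fold. In the 3 uppermost lines no member reaches the dashed line, whereas 2 to 5 members do in each of the other 12.

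By the mean of each close pair, the members fell into 3 sets. Sqstm1 and Gabarapl1 were highest in the DMSO-tunicamycin pair, 2 of 9 members where 36.1% of all loci had their highest mean. Map1lc3a, Atg5, Ulk1 and Rtn3 were highest in the tunicamycin-thapsigargin pair, 4 of 9 where 35.4% of loci did. Gabarapl2, Atg7 and Becn1 were highest in the thapsigargin-DMSO pair, 3 of 9 against 28.5%. The members were thus spread over all 3 pairs. For Atg7 the set rests on a near tie, since the mean log2 levels of the thapsigargin-DMSO and tunicamycin-thapsigargin pairs were 3.79 and 3.75 and its highest single group, at 14.0 FPKM, was in the latter pair. Values that moved with the same pairs included Ago2 itself and the fibroblast markers, whose sum was 2944 and 2967 FPKM in the DMSO-tunicamycin pair, 2798 and 2692 in the tunicamycin-thapsigargin pair and 1574 and 1684 in the thapsigargin-DMSO pair. Single markers went opposite ways. Vim, the intermediate filament gene that made up most of the sum in the DMSO-tunicamycin pair, was highest there, at 2580 and 2634 FPKM, and lowest in the tunicamycin-thapsigargin pair, at 952 and 1181. The collagen gene Col1a1 was lowest in the DMSO-tunicamycin pair, at 5.97 and 6.77 FPKM, and highest in the tunicamycin-thapsigargin pair, at 651 and 521, and Col1a2 had the same order. Fn1 and Pdgfrb were lowest in the thapsigargin-DMSO pair, Fn1 at 95.2 and 46.4 FPKM and Pdgfrb at 0.80 and 0.54. Inside that pair Fn1 differed 2.03-fold in (FPKM + 1). The part of Ago2 and the markers in the members' differences was not tested.

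Sqstm1 had the widest range of (FPKM + 1), 2.04-fold, although without the added 1 that of Gabarapl2 was wider. The loci whose pattern over the 6 groups was most like that of Sqstm1 were Ypel5 (Pearson r of log2 values 0.998), Nsrp1 (0.998) and Swap70 (0.997), among 9258 loci whose mean reached 5 FPKM. With 6 points such likeness was common: 862 loci (9.31%) had r of at least 0.9. Ypel5 was at 12.4, 20.8 and 10.2 FPKM in the DMSO, tunicamycin and thapsigargin groups with the label Ago2+/+ and at 24.2, 11.6 and 14.1 FPKM with the label Ago2-/-, the same order of groups as Sqstm1.

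The rest of the pathway was read from 10 lists of 89 other genes, of which 86 had a mean of at least 1 FPKM. Under tunicamycin 8 of the 86 were higher and 13 lower with the label Ago2+/+, and 10 higher and 8 lower with the label Ago2-/-. Under thapsigargin 4 were higher and 7 lower with the label Ago2+/+, and 11 higher and 10 lower with the label Ago2-/-. Between the labels, 6 were higher and 11 lower in Ago2-/- under DMSO, 13 and 11 under tunicamycin, and 7 and 4 under thapsigargin. As shares these were 4.65% to 15.1% of the 86 in either direction, next to 12.4% to 19.3% of all loci, and their median log2 ratio stayed between -0.05 and 0.04 in all 7 comparisons. The middle of the pathway thus lay near that of all loci, while single genes differed.

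In the ULK1 complex, 1 of 4 other genes, the ULK1-related kinase gene Ulk2, differed by at least 1.5-fold in all 7 comparisons. The share of all loci that did so was not counted, and the 7 comparisons share the same 6 group values. Ulk2 was at 6.38, 2.71 and 14.8 FPKM in the DMSO, tunicamycin and thapsigargin groups with the label Ago2+/+ and at 2.54, 16.3 and 5.84 with the label Ago2-/-. It was highest in the same 2 groups as Ulk1, with a wider range. Atg13, which encodes the adaptor of the complex, was lowest in Ago2-/- thapsigargin at 9.84 FPKM and between 15.6 and 21.7 FPKM in the other 5 groups. Of the 86 genes, 47 (54.7%) reached 1.5-fold in no comparison, next to 39.8% of all loci, and 6 of the 8 around the Beclin 1 complex were among them. The other genes there were Bcl2, whose product binds Beclin 1, at 4.90 and 4.59 FPKM in Ago2+/+ tunicamycin and Ago2-/- DMSO against 1.59 to 2.33 elsewhere, and Uvrag, which encodes a Beclin 1 partner, at 18.7 and 19.7 FPKM in Ago2+/+ thapsigargin and Ago2-/- tunicamycin against 26.6 to 32.1 elsewhere.

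Among genes of membrane supply, Vmp1, which encodes an ER membrane protein needed for autophagosome formation, was at 178 FPKM in Ago2+/+ tunicamycin and 196 in Ago2-/- DMSO, the 2 groups highest for Sqstm1. It was between 78.2 and 86.3 FPKM in the other 4. The locus of Vmp1 also holds a further gene identifier, ENSMUSG00000065455, so its value may not be of Vmp1 alone. Atg9b, which encodes a transmembrane protein of the ATG9 family, was at 7.09 FPKM in Ago2+/+ DMSO and 5.25 in Ago2-/- thapsigargin and under 1 FPKM elsewhere, the widest range among the pathway genes. Of the 9 other genes of ATG8 conjugation and processing, Atg4d, which encodes a protease of ATG8 proteins, was at 7.75 and 7.46 FPKM in Ago2+/+ tunicamycin and Ago2-/- DMSO and between 18.4 and 20.8 elsewhere. Atg16l1, whose product binds the ATG5 conjugate, had its highest values in those same 2 groups, 24.3 and 23.8 FPKM, and its lowest where Atg5 was highest, 12.4 and 12.0 FPKM.

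Of 11 other cargo receptors, Stbd1, a receptor for glycogen, was higher and Bnip3, a mitophagy receptor, lower under both stressors with the label Ago2+/+. This is 9.09% in each direction, below the shares of all loci given above. With the label Ago2-/-, Calcoco1 was higher and Bnip3 lower under tunicamycin, 9.09% each, against 19.3% and 17.5% of all loci. Under thapsigargin with that label, Tax1bp1 and Bnip3 were higher, 18.2% against 14.3% of loci. Stbd1 was lower, 9.09% against 16.8%. Stbd1 was lowest in Ago2+/+ DMSO and Ago2-/- thapsigargin, at 8.04 and 10.9 FPKM, and between 22.0 and 29.1 elsewhere. Bnip3 was highest in those 2 groups, at 53.3 and 72.1 FPKM, and lowest in Ago2+/+ thapsigargin and Ago2-/- tunicamycin, at 15.0 and 17.0.

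The 11 other ER-phagy genes included 3 relatives of the same receptor family. Retreg1, which encodes the ER-phagy receptor FAM134B, was at 20.2, 23.4 and 6.52 FPKM in the DMSO, tunicamycin and thapsigargin groups with the label Ago2+/+ and at 21.0, 7.24 and 17.2 with the label Ago2-/-. It was thus lowest in the 2 groups in which Rtn3 was highest. Retreg3 was at 20.7 and 22.4 FPKM in Ago2+/+ DMSO and Ago2-/- thapsigargin and between 9.10 and 12.1 in the other 4. Retreg2, added after its values were seen to complete the family, was at 31.2 and 28.4 FPKM in Ago2+/+ tunicamycin and Ago2-/- DMSO and between 20.7 and 22.5 in the other 4. Of the other reticulon genes, Rtn4 lay between 143 FPKM (Ago2+/+ tunicamycin) and 205 FPKM (Ago2+/+ thapsigargin), and like Rtn3 it had its 2 lowest values in Ago2+/+ tunicamycin and Ago2-/- DMSO. Rtn2 was low, between 0.52 and 3.28 FPKM.

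For fusion with the lysosome, 13 of 14 genes had a mean of at least 1 FPKM. Snap29, which encodes a SNARE protein, was at 5.01 and 5.04 FPKM in Ago2+/+ tunicamycin and Ago2-/- DMSO against 8.84 to 12.0 elsewhere, and Plekhm1, which encodes a RAB7 adaptor, was highest in those 2 groups at 9.97 and 8.86 FPKM against 4.09 to 5.71 elsewhere. Of 7 transcription factors of autophagy genes, Mitf, a relative of TFEB, was lowest in the same 2 groups at 0.49 and 0.55 FPKM against 2.23 to 3.34, and Foxo3 was highest there at 10.2 and 10.5 FPKM against 6.19 to 7.83. Tfe3, another and more abundant relative of TFEB, went the opposite way to Mitf. It was highest in those 2 groups at 57.9 and 58.7 FPKM against 36.5 to 50.8 elsewhere. Of 13 upstream regulators, Prkaa2, which encodes a catalytic subunit of the energy sensor AMPK, was under 0.4 FPKM in those 2 groups and between 1.04 and 1.90 elsewhere. Prkaa1, which encodes the other catalytic subunit, was far more abundant and nearly level, between 21.6 and 24.3 FPKM in all 6 groups. Ddit4, which encodes the mTOR inhibitor REDD1, was highest in Ago2+/+ thapsigargin and Ago2-/- tunicamycin, at 48.0 and 53.3 FPKM, and lowest in Ago2+/+ DMSO at 27.4.

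**Figure D5:**
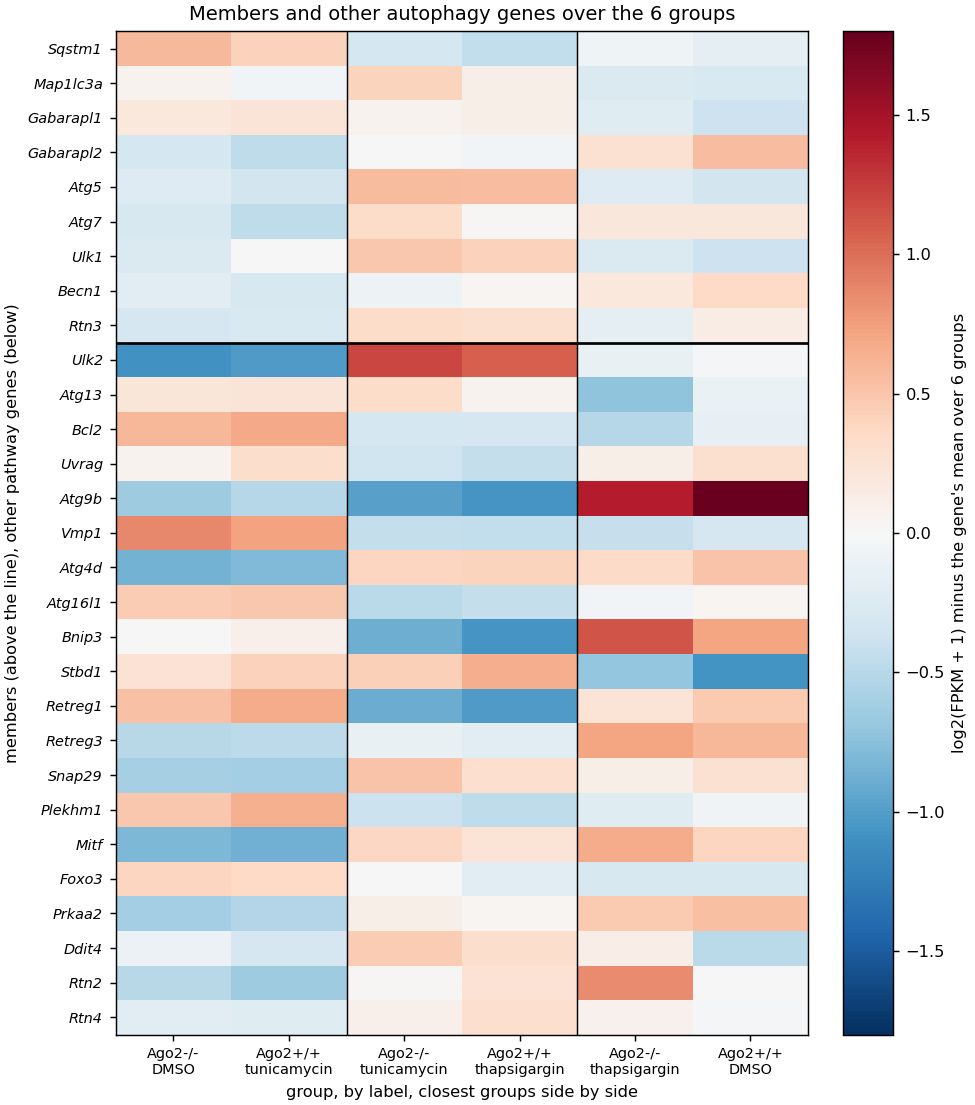
Colours give log2(FPKM + 1) minus the mean of the gene over the 6 groups, for the 9 members above the line and 20 other pathway genes below it; columns are the groups, with the closest groups side by side. Vmp1, Bcl2 and Plekhm1 share with Sqstm1 their highest values in the left pair of columns (Vmp1 at 196 and 178 FPKM), and Ulk2 shares with Ulk1 and Atg5 its highest values in the middle pair (16.3 and 14.8 FPKM).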

How the data were processed

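RNA of 18 fibroblast libraries had been sequenced, 3 in each of 6 groups. Per the submitters' processing notes, the authors used FastQC 0.11.7, HISAT2 2.1.0, StringTie 1.3.4d and Cuffdiff 2.2.1 on GRCm38. They deposited 1 FPKM estimate per locus and group over its libraries, in a table of 772485 rows (51499 loci in 15 pairs of groups). Because the deposited FPKM are pooled, they carry no spread and no p-value could be computed from them. No source used here states the library scaling. The authors' own fold changes, test statistics, p-values and q-values are also in the table and were not used. Depth is unknown: low values did not lie on the steps that whole reads leave (at best 21.8% to 32.3% of low values within 0.1 of a multiple, where 20% is expected without steps). The study states in general that experiments had biological replicates; for these libraries the labels do not name separate cultures.

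Groups labelled Ago2+/+ are called DCR1 in the titles and the table. For 4 libraries (replicate 2 of the 3 groups labelled Ago2+/+, replicate 3 of Ago2-/- DMSO) the labels conflict on genotype, and the title decided their group.

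Differences were log2 ratios of (FPKM + 1), counted at 1.5-fold among loci whose mean reached 1 FPKM, with Python 3.11.15, pandas 2.3.3 and numpy 2.4.6. The counting was tested on simulated data. Locus coordinates are those of the table, counted from 1; strand and gene limits are from GENCODE M21 of the same build. Members and gene lists were chosen with earlier results of these data known. Named besides the members were Ago2, the 2 genes of widest range in each list, genes past 2-fold under both stressors of a label or in all 3 contrasts of the labels, and the 3 loci most like the member of widest range in (FPKM + 1). Ddit3, Atf4, Tfe3 and Prkaa1 were named after their values were seen. Alternatives were other pseudocounts (0.1 or none), no minimum level, 2-fold, centring on the median and summed or single-gene loci.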

Additional observations from a re-analysis of the deposited data

Results flagged for a closer look

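For 3 members the response to a stressor stood out because the log2 ratios reached 1.5-fold in opposite directions. None of them was tested here, since each group has 1 value and the authors' own test results were not used. For Sqstm1, tunicamycin against DMSO differed by -1.49 between the label Ago2-/- and the label Ago2+/+ (log2 ratios -0.90 and 0.59). For Atg7 the same difference was 1.29 (0.62 and -0.67). For Gabarapl2 the difference in thapsigargin against DMSO was 1.20 (0.60 and -0.59). All 6 groups belong to close pairs that cross the labels, which is so for any gene and is not particular to these 3. The share of all loci with such opposite directions was not counted. Ago2, which checks the labels, was at 5.61 FPKM in Ago2-/- DMSO and 5.75 in Ago2+/+ tunicamycin against 15.5 to 22.1 elsewhere.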

How the results depend on the processing

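No paired analysis was possible because the table holds 1 pooled value per group, and for the same reason no library could be left out. With pseudocounts of 0.1 or 0, no minimum level, centring on the median, or single-gene or summed loci, each count of members, both directions together, stayed within 1.5 times its value. Of the recomputed log2 ratios of members, 188 kept their direction and side of the limit, and 1, that of Sqstm1 under tunicamycin with the label Ago2+/+, came to 0.58, below the limit, after centring, which leaves 1 of the 2 members higher there (Gabarapl1). Of those of the other named genes, 406 did so and 14, of Atg9b, Plekhm1, Prkaa2 and Rtn2, newly reached 1.5-fold with a smaller pseudocount. At 2-fold fewer genes can be counted by construction: 1 member remained (Gabarapl2) under tunicamycin with the label Ago2+/+ and 0 in the other 6 comparisons. Of the other pathway genes, 7 and 5 were counted at 2-fold for tunicamycin and thapsigargin with the label Ago2+/+, 7 and 10 with the label Ago2-/-, and 8, 9 and 5 between the labels under DMSO, tunicamycin and thapsigargin, where the counts at 1.5-fold were 21, 11, 18, 21, 17, 24 and 11. Leaving Gabarap out of the ATG8 family raises the other shares by construction. In the order Ago2+/+ DMSO, tunicamycin, thapsigargin, then Ago2-/- DMSO, tunicamycin, thapsigargin, Map1lc3a then held 23.8%, 29.4%, 30.2%, 30.8%, 35.1% and 25.2%. Gabarapl1 held 29.1%, 46.7%, 39.9%, 43.7%, 36.2% and 34.2%, and Gabarapl2 held 47.1%, 23.9%, 29.9%, 25.5%, 28.8% and 40.6%. Pooled values and unknown depth limit all of these.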

Other observations

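Inside the close pairs, few of the other pathway genes differed. Their median absolute log2 ratio was between 0.07 and 0.14 there and between 0.20 and 0.40 in the other 12 pairs, and 0 to 3 of the 86 reached 1.5-fold inside a pair against 11 to 25 outside. The exceptions, chosen after their values were seen, were Atg13 (9.84 against 15.6 FPKM), Ddit4 (41.9 against 27.4) and Rtn2 (3.28 against 1.39) in Ago2-/- thapsigargin against Ago2+/+ DMSO, and Ccpg1, an ER-phagy receptor gene, in Ago2-/- tunicamycin against Ago2+/+ thapsigargin (9.07 against 5.37). The locus of Ccpg1 also holds Dyx1c1 and Gm44503. Among genes under a mean of 1 FPKM, Vamp8, which encodes a SNARE of autophagosome fusion, was at 3.65 FPKM in Ago2-/- DMSO and 0.12 in Ago2+/+ tunicamycin. Atg2a was listed at 0 in all 6 groups.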
